A study of Mus musculus with 8 samples.

Results

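Receptor and junction genes of the endothelium, the cell layer that lines blood and lymph vessels, were followed in mouse embryos with and without Runx1, the transcription factor needed for the first definitive blood cells to form from endothelium. They were Kdr, Flt1, Flt4, Tek, Tie1, Pecam1, Cdh5, Emcn, Ramp2 and Eng, 10 of the 18193 genes that a probe set of the array named alone. The genes were chosen by name, and all 10 were measured. In all, 16 probe sets carried 1 of these symbols alone, and the probe set with the highest mean over all 8 arrays stood for each gene, with the other 6 as a check. Total RNA from embryo propers was hybridised to Affymetrix arrays in 4 groups of 2 arrays each, namely Runx1 knockout at E12, wild type at E12, Runx1 knockout at E8.5 and wild type at E8.5, where E12 and E8.5 are days of gestation. All mice were on a BALB/c background, the embryos carried the knockout in every cell rather than in the endothelium alone, and the age is the day of gestation. The RNA went through 2 rounds of amplification before labelling, and the labels do not say whether several embryos were combined for an array. The study describes its replicates as biological, and the p-values below measure the spread between these arrays. The question was how transcripts of vessel lining cells differed between knockout and wild type embryos at each stage, and between the stages in each genotype.

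Endothelial cells receive their growth signals through a small set of receptor tyrosine kinases. Kdr is the main signalling receptor for vascular endothelial growth factor A, Flt1 binds the same ligand tightly and acts largely as a decoy, and Flt4 takes the lymphatic ligand Vegfc. Tek binds the angiopoietins, and its relative Tie1, for which no such ligand is firmly established, modulates it. Cdh5 (VE-cadherin) and Pecam1 hold neighbouring endothelial cells together, and Emcn is a sialomucin of the cell surface, strongest on veins and capillaries. Eng is a co-receptor for ligands of the transforming growth factor beta family, and Ramp2 pairs with Calcrl to form a receptor for adrenomedullin, the product of Adm. Several of these genes are also used by blood cells and their precursors, in which Kdr, Tek, Pecam1 and Eng are known surface markers.

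Promoter sequence was available in the RefSeq table (build GRCm38.p6) for 7 of the 10 genes, Kdr, Flt1, Flt4, Tek, Tie1, Emcn and Eng, and not for Pecam1, Cdh5 or Ramp2. Each window ran from 250 bases before to 50 bases after the start of the gene. The motifs searched, on both strands, were TGTGGT for RUNX factors, AGGAAG for ETS factors, AGATAA for GATA factors and AACAAT for SOX factors. These factor families govern endothelial and blood genes. The 4 windows below belong to the genes with a promoter sequence that changed with stage in at least 1 genotype, and capitals mark the motif letters as they read on the strand of the gene. They lie at chr5:75978406-75978705 on the minus strand for Kdr, chr5:147725962-147726261 on the minus strand for Flt1, chr3:137340828-137341127 on the plus strand for Emcn and chr2:32646345-32646644 on the plus strand for Eng.
Kdr: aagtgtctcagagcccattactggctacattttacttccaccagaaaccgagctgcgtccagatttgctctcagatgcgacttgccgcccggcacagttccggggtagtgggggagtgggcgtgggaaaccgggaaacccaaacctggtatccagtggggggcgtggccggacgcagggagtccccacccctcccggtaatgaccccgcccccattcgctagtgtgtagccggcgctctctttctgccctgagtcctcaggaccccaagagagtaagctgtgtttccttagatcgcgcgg
Flt1: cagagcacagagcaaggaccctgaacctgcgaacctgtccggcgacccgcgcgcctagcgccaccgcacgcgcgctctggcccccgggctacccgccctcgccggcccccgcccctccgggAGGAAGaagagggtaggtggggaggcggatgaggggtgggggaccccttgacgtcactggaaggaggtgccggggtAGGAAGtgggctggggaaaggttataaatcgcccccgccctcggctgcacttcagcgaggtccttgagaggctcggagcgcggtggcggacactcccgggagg
Emcn: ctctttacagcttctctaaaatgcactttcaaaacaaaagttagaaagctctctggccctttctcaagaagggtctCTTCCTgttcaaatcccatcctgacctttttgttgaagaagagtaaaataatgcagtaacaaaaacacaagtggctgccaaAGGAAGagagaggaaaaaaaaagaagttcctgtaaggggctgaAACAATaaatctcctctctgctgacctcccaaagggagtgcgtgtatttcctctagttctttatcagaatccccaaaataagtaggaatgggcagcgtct
Eng: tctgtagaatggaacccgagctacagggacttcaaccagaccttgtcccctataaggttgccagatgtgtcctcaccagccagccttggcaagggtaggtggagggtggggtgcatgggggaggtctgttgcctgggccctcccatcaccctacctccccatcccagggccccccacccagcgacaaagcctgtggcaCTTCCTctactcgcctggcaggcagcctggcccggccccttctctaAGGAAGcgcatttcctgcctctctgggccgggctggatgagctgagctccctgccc

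The RUNX letters TGTGGT were in none of the 7 windows (0 of 7), against 16.8% of all 32851 promoters of the same length in the table. The study gives the RUNX site as TGT/cGGT, and the other form, TGCGGT, was not searched. The Flt1 window above holds the reverse letters of that form, accgca, so 0 of 7 holds for TGTGGT alone. The ETS letters occurred 2 times each in Flt1, Emcn, Eng and Tie1, so in 4 of 7 windows against 35.4% of all promoters. In Flt1 both copies read AGGAAG on the strand of the gene, with first bases at -129 and -53, while in Emcn and Eng 1 copy read in each direction. The GATA letters were in the Tek window alone among the 7, against 11.2% of all promoters, and the SOX letters were in Emcn and Tek, against 10.7%. No 2 motif matches overlapped. The Kdr and Flt4 windows held none of the 4 motifs. A match describes the letters of a window and not a bound site.

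The targeted gene, Runx1, was read by 6 probe sets, none of which passed between the genotypes. The brightest had a log2 intensity of 7.10 and 6.86 in the E12 knockout arrays, against 7.06 and 6.39 in the wild type arrays, and 6.41 and 6.86 in the E8.5 knockout arrays, against 6.16 and 5.95 in the wild type arrays. Another was higher in the E8.5 knockout arrays, at 6.09 and 6.33, against 5.26 and 5.09 in the wild type arrays (difference 1.03, SE 0.17, t 6.17, adjusted p = 0.843), and at E12 it had 4.09 and 4.27 in knockout, against 4.41 and 4.39 in wild type. The other 4 overlapped between the genotypes at both stages. No Runx1 probe set was thus clearly lower in the arrays labelled knockout. The sources used here do not say which stretch of Runx1 was disrupted, and these probe sets therefore do not check the labels.

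The arrays had a median log2 intensity of 5.16 to 5.20 at E12 and 4.96 to 5.01 at E8.5, and the 99th percentile was 10.51 to 11.09 at E12 against 12.24 to 12.30 at E8.5. The 2 wild type arrays at E8.5 agreed least, with an SD of the replicate difference of 0.833 over all probe sets against 0.403 in the E8.5 knockout, and wild type replicate 1 stood apart from the other 3. Of 6 trophoblast and placenta genes measured, 5 were highest in that array, and their summed intensity there was 13134, against 6535 and 7311 in the E8.5 knockout arrays and 6136 in wild type replicate 2. Tpbpa, a marker of the spongiotrophoblast, had a log2 intensity of 4.24 and 4.21 in the knockout arrays, against 9.52 and 4.15 in the wild type arrays. The list of 8 red cell genes summed to 10981 and 14734 in the E8.5 knockout arrays, against 8469 and 40222 in the wild type arrays, so the second wild type array was the high one there. The list of 8 yolk sac endoderm genes was high at E8.5 in every array, although the labels give embryo propers, with summed intensities of 50986 and 68029 in knockout and 35258 and 63096 in wild type, against 2978 to 4004 over the 4 E12 arrays. At E12, 8 of 8 megakaryocyte and platelet genes were lower in knockout embryos without overlap (background 18.6%), summing to 253 to 258 against 2284 to 2646 in wild type embryos. The part of these differences in the results below was not tested except where a value without an array is given.

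**Figure D1:**
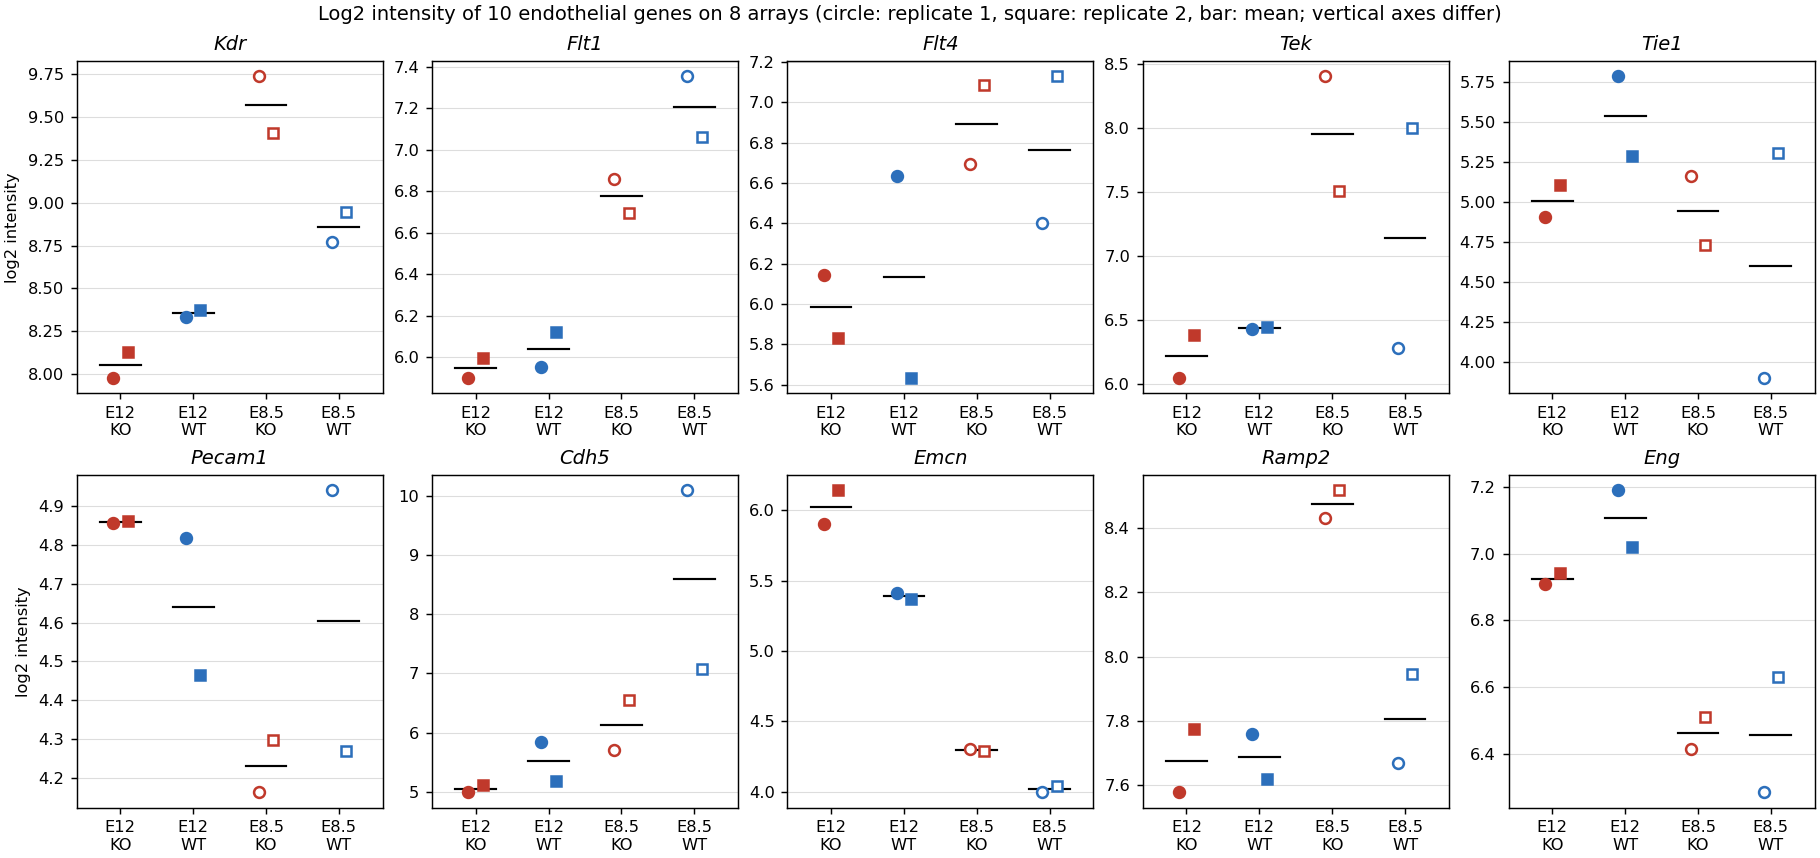
Log2 intensity (vertical axes, which differ between panels) of the 10 endothelial genes in E12 knockout, E12 wild type, E8.5 knockout and E8.5 wild type embryos; circles are replicate 1, squares replicate 2, bars means, filled symbols E12 and open symbols E8.5. Kdr and Emcn separated all 4 groups, while Tek, Tie1 and Cdh5 had widely spaced wild type replicates at E8.5.

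At E8.5, Kdr and Ramp2 had higher levels in both knockout arrays than in both wild type arrays, Cdh5 and Flt1 had lower levels, and Flt4, Tek, Tie1, Pecam1 and Eng overlapped between the genotypes. No gene passed the test at this stage. With limma and Benjamini-Hochberg adjustment over all 45037 probe sets, 0 of the 10 genes had an adjusted p below 0.05, the same as over all genes (0%), and 4 of the 10 had an unadjusted p below 0.05, against 5.27% of all genes. At the threshold stated in the methods of the study, an absolute moderated t above 3, Kdr and Ramp2 passed, so 2 of 10 against 2.31% of all genes. This second threshold is not corrected for the number of genes.

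Kdr had a log2 intensity of 9.74 and 9.40 in the E8.5 knockout arrays, against 8.77 and 8.95 in the wild type arrays. Both knockout values lay above both wild type values. The difference was 0.71 (SE 0.18, 95% interval 0.29 to 1.14, moderated t 4.02, adjusted p = 0.990), or 1.64-fold. Without wild type replicate 1 it was 0.62 (adjusted p = 0.319). A different number of endothelial cells in an embryo and a different amount of transcript in each cell cannot be told apart in RNA of whole embryos, for Kdr or for any gene below.

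Ramp2 had 8.43 and 8.52 in the E8.5 knockout arrays, against 7.67 and 7.94 in the wild type arrays. Here too the knockout arrays were the higher ones. The difference was 0.67 (SE 0.17, 95% interval 0.26 to 1.08, t 3.88, adjusted p = 0.990), and 0.53 without wild type replicate 1 (adjusted p = 0.355). Without wild type replicate 2 instead, the Ramp2 difference was 0.80. As each array was left out, the Kdr difference ranged from 0.54 to 0.88 and that of Ramp2 from 0.53 to 0.80. With 1 wild type array left, that group has no spread of its own, so the t threshold decides nothing there. The ligand gene Adm had 7.05 and 7.35 in the knockout arrays, against 12.59 and 7.07 in the wild type arrays, so its wild type mean rested on replicate 1. Calcrl, the partner of Ramp2, had 6.59 and 6.86 in the knockout arrays, against 4.14 and 5.89 in the wild type arrays. Adm and Calcrl were named here after their values were seen.

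Cdh5 gave the widest difference and the least even one. Its log2 intensity was 5.70 and 6.55 in the E8.5 knockout arrays, against 10.09 and 7.08 in the wild type arrays. The knockout arrays were both lower, but the wild type arrays lay far apart, and wild type replicate 1 was the array that stood apart in trophoblast genes. The difference was -2.46 (SE 0.89, 95% interval -4.61 to -0.32, t -2.75, adjusted p = 1.000). It was -0.96 without wild type replicate 1 (adjusted p = 0.403) and -3.97 without wild type replicate 2 (adjusted p = 0.00392), so Cdh5 passed the test only where the wild type was represented by the array with high trophoblast genes. The second Cdh5 probe set had 4.05 and 3.99 in the knockout arrays, against 6.45 and 5.09 in the wild type arrays. The difference was -1.75 (SE 0.40, t -4.32, adjusted p = 0.982). Its knockout values lay below the 25th percentiles of those arrays (4.11 and 4.12), and no detection calls bear on them. Both probe sets thus had wild type replicate 1 highest and wild type replicate 2 next.

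Most of the other endothelial genes had another order. Of the 10 genes studied, 7 (Kdr, Flt4, Tek, Tie1, Emcn, Ramp2 and Eng) had their lowest E8.5 value in wild type replicate 1, against 28.8% of all genes, and Flt1, Pecam1 and Cdh5 had their highest there, against 30.8% of all genes. Flt1 shared with Cdh5 that wild type replicate 2 came next, while the order of the knockout arrays differed. This held for the brightest Flt1 probe set alone. No other Flt1 probe set was highest in wild type replicate 1, and another was lowest there, at 6.17 against 7.97 in wild type replicate 2. Of the 15 other endothelial genes listed, 13 were lowest in that array. Vwf, which encodes von Willebrand factor, had 5.17 and 4.96 in the knockout arrays, against 3.96 and 6.48 in the wild type arrays, and Mmrn2, a matrix protein of vessels, had 6.24 and 5.51 in the knockout arrays, against 4.25 and 7.03 in the wild type arrays. For both genes the 2 wild type arrays enclosed the knockout arrays. Esam, a junction adhesion molecule of endothelium and platelets, was highest in wild type replicate 1, as Cdh5 was. It had 7.35 and 6.88 in the knockout arrays, against 10.12 and 6.72 in the wild type arrays. Unlike Cdh5, it was lowest in wild type replicate 2, so its groups overlapped. Vwf, Mmrn2 and Esam were named after their values were seen.

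**Figure D2:**
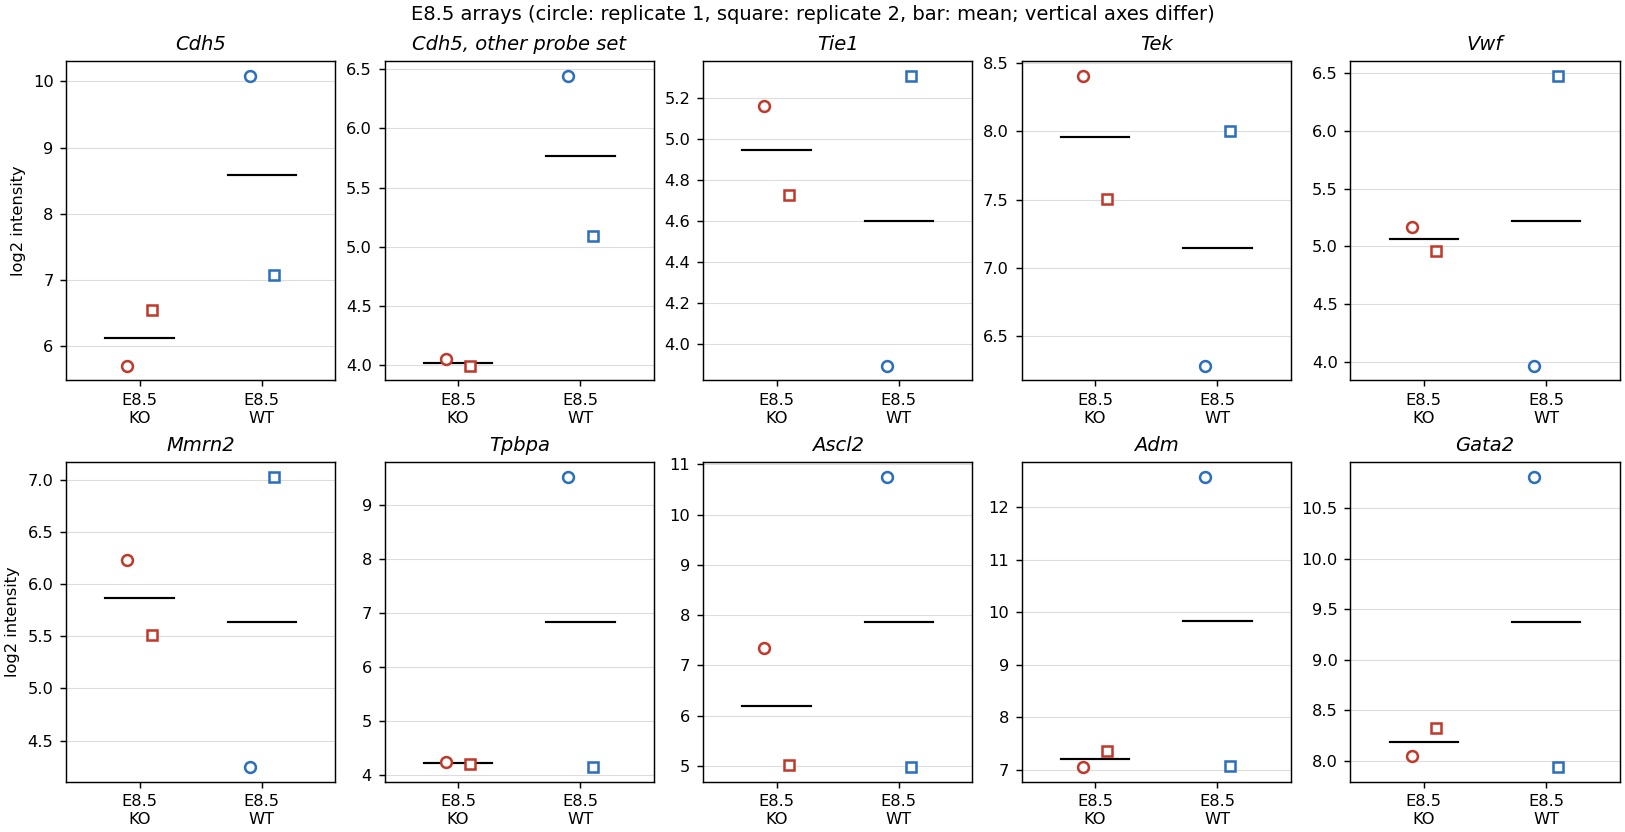
Log2 intensity (vertical axes, which differ between panels) in the 2 E8.5 knockout and the 2 E8.5 wild type arrays for both Cdh5 probe sets, Tie1, Tek, Vwf, Mmrn2, Tpbpa, Ascl2, Adm and Gata2; circles are replicate 1, squares replicate 2 and bars means. Wild type replicate 1 was the highest array for Cdh5, Tpbpa, Ascl2, Adm and Gata2 and the lowest for Tie1, Tek, Vwf and Mmrn2.

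The angiopoietin receptor Tek had 8.41 and 7.51 in the E8.5 knockout arrays, against 6.28 and 8.003 in the wild type arrays. The groups overlapped, and the difference of 0.81 (SE 0.56) was -0.046 without wild type replicate 1. Tie1 had 5.16 and 4.73 in the knockout arrays, against 3.89 and 5.31 in the wild type arrays, again with the wild type arrays on either side. Its difference of 0.34 (SE 0.46) was -0.36 without that array. Without wild type replicate 2 instead, the differences were 1.67 for Tek and 1.05 for Tie1. The sign of both therefore depended on which wild type array was used.

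Flt1 had 6.86 and 6.69 in the E8.5 knockout arrays, against 7.36 and 7.06 in the wild type arrays, a difference of -0.43 (SE 0.17, t -2.47, adjusted p = 1.000). The groups did not overlap for this probe set, but the other 3 Flt1 probe sets differed by 0.40, 0.052 and -0.19. Emcn had 4.30 and 4.29 in the knockout arrays, against 3.99 and 4.04 in the wild type arrays, a difference of 0.28 (SE 0.15), with all 4 values below the median of their arrays. Flt4, Pecam1 and Eng overlapped between the genotypes, with differences of 0.13 (SE 0.40), -0.38 (SE 0.25) and 0.0058 (SE 0.18). The Pecam1 difference was -0.039 without wild type replicate 1, and that of Flt1 was then -0.28. For Eng the 95% interval ran from -0.41 to 0.43. Groups did not overlap for 5 of the 10 genes, 3 higher and 2 lower in knockout, against 13.5% higher and 15.6% lower over all genes.

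**Figure D3:**
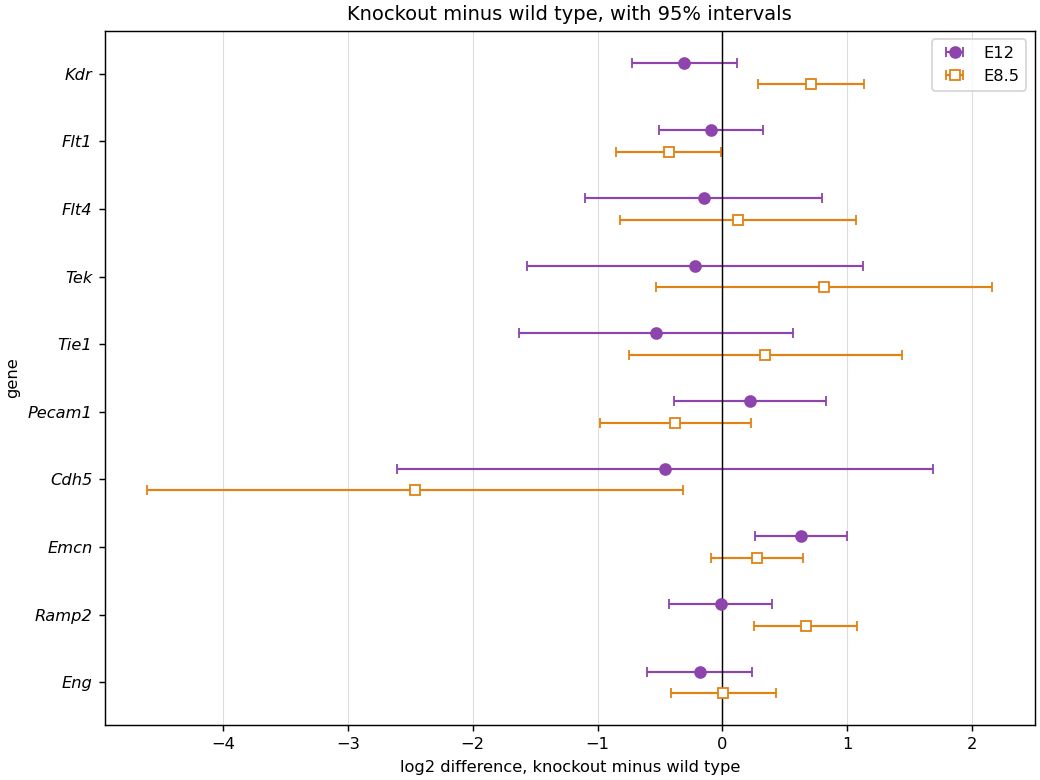
Log2 difference of knockout minus wild type (horizontal axis) for the 10 genes at E12 (filled circles) and E8.5 (open squares), with 95% intervals from the fit over all probe sets. The E8.5 intervals of Kdr and Ramp2 lay above 0 and those of Flt1 and Cdh5 below it, and at E12 the interval of Emcn alone excluded 0.

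At E12, 8 of the 10 genes had a lower mean in knockout than in wild type embryos, against 51.2% of all genes. Emcn and Pecam1 were the 2 exceptions, and the differences were small. None passed the test (0 of 10 with an adjusted p below 0.05 in limma, against 0.0275% of all genes), and 1 had an unadjusted p below 0.05, against 2.26% of all genes. Emcn was also the gene with an absolute t above 3, 1 of 10 against 0.973% of all genes. Groups did not overlap for 7 genes, of which Emcn and Pecam1 were higher (background 12%) and Kdr, Tek, Tie1, Cdh5 and Eng were lower (background 18.6%). The median difference over the 10 genes was -0.16, against -0.0063 over all genes.

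Emcn had 5.90 and 6.14 in the E12 knockout arrays, against 5.41 and 5.37 in the wild type arrays. Both knockout arrays were above both wild type arrays. The difference was 0.63 (SE 0.15, 95% interval 0.27 to 1.00, t 4.13, adjusted p = 1.000), or 1.55-fold, and it ranged from 0.51 to 0.75 as each array was left out. Without knockout replicate 2 at E12 its absolute t was no longer above 3. Emcn was the gene with the higher knockout mean, without overlap, at both stages. Its 5 nearest genes in profile over the 8 arrays were Serpini1, Slc25a53, Tac1, Syt1 and Msx3, with a root mean square distance of 0.13 to 0.17.

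Kdr at E12 had 7.98 and 8.13 in the knockout arrays, against 8.34 and 8.37 in the wild type arrays. The order of the genotypes was thus the reverse of that at E8.5, with no overlap at either stage. The difference was -0.30 (SE 0.18, 95% interval -0.73 to 0.12, adjusted p = 1.000). The test of the change between stages, the E12 difference minus the E8.5 difference, gave -1.01 (SE 0.25, 95% interval -1.61 to -0.41, t -4.05, adjusted p = 1.000), which did not pass after adjustment. Over the 10 genes, 0 passed that test, against 0.011% of all genes, and Kdr was the 1 with an absolute t above 3, against 0.885% of all genes. Ramp2 gave -0.68 (SE 0.24, t -2.80) in the same test, and its E12 values of 7.58 and 7.78 in knockout and 7.76 and 7.62 in wild type embryos overlapped.

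Tie1 had 4.91 and 5.11 in the E12 knockout arrays, against 5.79 and 5.29 in the wild type arrays, a difference of -0.53 (SE 0.46). Tek had 6.05 and 6.39, against 6.43 and 6.45 in wild type, a difference of -0.22 (SE 0.56). The knockout values of both receptors were lower without overlap, and neither difference passed the test. The Tie1 difference was -0.28 without E12 wild type replicate 1, and the Tek difference was -0.048 without E12 knockout replicate 1. That wild type array was the highest E12 array for 12 of the 15 other endothelial genes listed and for 4 of the 10 genes studied, against 40.1% of all genes. Eng had 6.91 and 6.94 in knockout and 7.19 and 7.02 in wild type embryos, a difference of -0.18 that was -0.096 without E12 wild type replicate 1. Cdh5 had 4.99 and 5.12 in knockout and 5.84 and 5.18 in wild type embryos. Cdh5 differed by -0.46 at E12, or by -0.13 without E12 wild type replicate 1, with all 4 arrays far below the wild type values of E8.5. Pecam1, which platelets and leukocytes also carry, had 4.86 and 4.86 in knockout and 4.82 and 4.47 in wild type embryos, all of them below the median of their arrays. Its difference of 0.22 was 0.043 without E12 wild type replicate 2. Flt1 and Flt4 overlapped, with differences of -0.090 and -0.15.

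The stages differed more than the genotypes. In wild type embryos, 4 of the 10 genes changed between the stages (adjusted p below 0.05 in limma), against 34.4% of all genes. Emcn and Eng were higher (background 14.8%) and Flt1 and Cdh5 lower (background 19.6%) at E12. In knockout embryos 4 of 10 changed as well, against 32% of all genes. Emcn was higher (background 13.8%) and Kdr, Flt1 and Ramp2 lower (background 18.3%) at E12. These shares were near those of all genes. Levels set across the stages also rest on how the arrays were scaled, since the upper end of the intensities differed between the stages, and the changes that turned direction under quantile normalization are given beside each gene. The median stage difference over all probe sets was 0.029 in knockout and -0.0070 in wild type embryos, and -0.0050 and -0.013 under that normalization.

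Emcn rose with stage in both genotypes. It averaged 6.02 ± 0.17 at E12 and 4.29 ± 0.011 at E8.5 in knockout embryos (SD, n = 2 each), a difference of 1.73 (SE 0.15, adjusted p = 0.00153). In wild type it averaged 5.39 ± 0.031 at E12 and 4.02 ± 0.031 at E8.5 (SD, n = 2 each), a difference of 1.37 (SE 0.15, adjusted p = 0.00264). The E8.5 values lay below the array medians in both genotypes, and in wild type below the 25th percentile of their arrays (4.10 and 4.13), with no detection calls, so no fold is given. The 4 groups did not overlap, in the order E12 knockout, E12 wild type, E8.5 knockout and E8.5 wild type. Both calls held as each of the 8 arrays was left out (highest adjusted p = 0.0273 in knockout and 0.0170 in wild type). The test of the difference between the 2 stage changes gave 0.36 (SE 0.22, adjusted p = 1.000).

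Flt1 was lower at E12 in both genotypes. It averaged 5.95 ± 0.070 at E12 and 6.78 ± 0.12 at E8.5 in knockout embryos (SD, n = 2 each), a difference of -0.83 (SE 0.17, adjusted p = 0.0174). For wild type embryos the means were 6.04 ± 0.12 at E12 and 7.21 ± 0.21 at E8.5 (SD, n = 2 each), a difference of -1.17 (SE 0.17, adjusted p = 0.00565). All 4 Flt1 probe sets had lower means at E12 in both genotypes, by 0.43 to 2.05 in knockout and by 0.80 to 1.51 in wild type. Of the 3 dimmer ones, 2 passed in knockout embryos (adjusted p = 0.0335 and 0.0324) and none passed in wild type embryos. The wild type call of the brightest probe set held as each of the 8 arrays was left out (highest adjusted p = 0.0324), while its knockout call was lost without any 1 of the 4 knockout arrays (adjusted p = 0.0706 to 0.121).

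**Figure D4:**
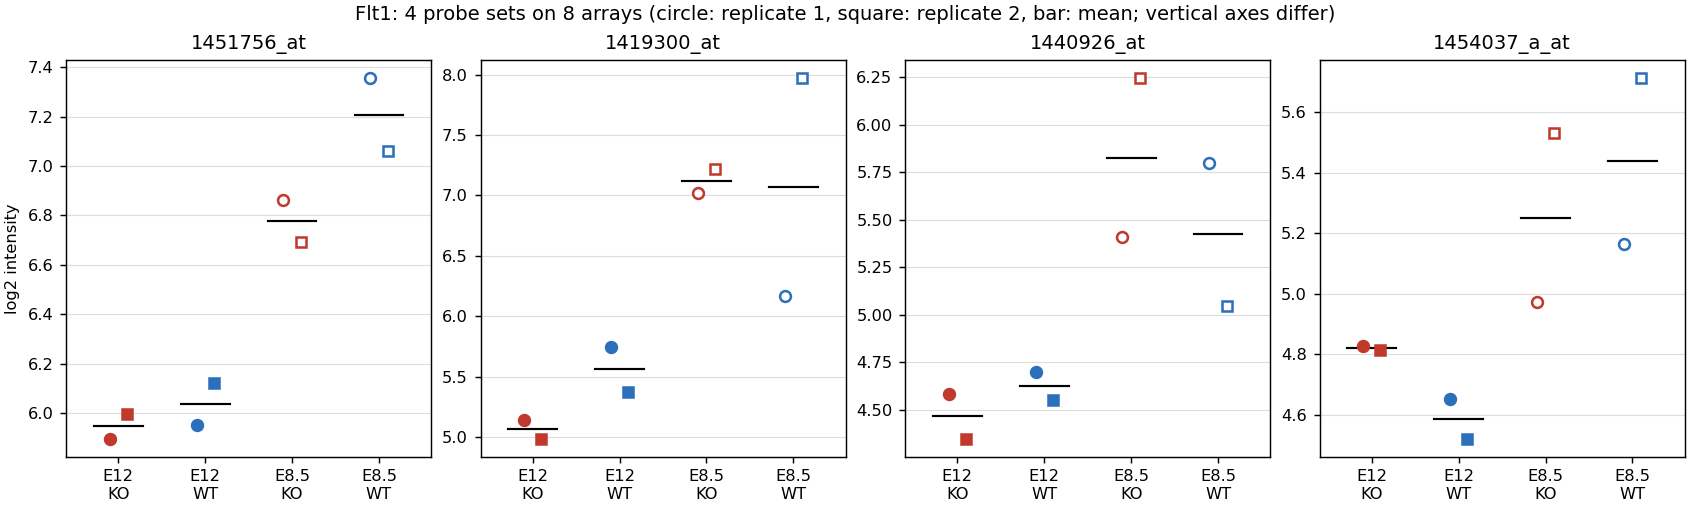
Log2 intensity (vertical axes, which differ between panels) of the 4 Flt1 probe sets in E12 knockout, E12 wild type, E8.5 knockout and E8.5 wild type embryos; circles are replicate 1, squares replicate 2, bars means, filled symbols E12 and open symbols E8.5. Every probe set had a lower mean at E12 than at E8.5 in each genotype, and the order of the genotypes at E8.5 differed between probe sets.

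Kdr, the partner of Flt1 in binding growth factor, averaged 8.05 ± 0.11 at E12 and 9.57 ± 0.24 at E8.5 in knockout embryos (SD, n = 2 each). The difference was -1.52 (SE 0.18, adjusted p = 0.00309), or 2.86-fold lower at E12, and it passed as each of the 8 arrays was left out (highest adjusted p = 0.0417). Wild type Kdr averaged 8.36 ± 0.027 at E12 and 8.86 ± 0.12 at E8.5 (SD, n = 2 each), a difference of -0.50 (SE 0.18, adjusted p = 0.0793) that turned to 0.33 under quantile normalization. The knockout change kept its sign there, at -0.71 (adjusted p = 0.0430). Ramp2 averaged 7.68 ± 0.14 at E12 and 8.47 ± 0.060 at E8.5 in knockout embryos (SD, n = 2 each), a difference of -0.80 (SE 0.17, adjusted p = 0.0188) that was -0.16 (adjusted p = 0.611) under quantile normalization and was also lost without any 1 of the 4 knockout arrays (adjusted p = 0.0746 to 0.136). Wild type Ramp2 differed by -0.12 (SE 0.17), and by 0.53 under quantile normalization.

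Eng rose in wild type embryos, where it averaged 7.11 ± 0.12 at E12 and 6.46 ± 0.24 at E8.5 (SD, n = 2 each), a difference of 0.65 (SE 0.18, adjusted p = 0.0362). This call held without E8.5 wild type replicate 2 (adjusted p = 0.0199) and was lost without any other array (adjusted p = 0.0581 to 0.146). In knockout embryos the difference was 0.46 (SE 0.18, adjusted p = 0.101). The second Eng probe set went the other way, by -0.51 in knockout and -0.86 in wild type embryos, neither of which passed. The Eng change is therefore that of its brighter probe set, and over the mean of both probe sets it was -0.022 in knockout and -0.11 in wild type embryos.

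Cdh5 averaged 5.06 ± 0.089 at E12 and 6.12 ± 0.60 at E8.5 in knockout embryos (SD, n = 2 each), a difference of -1.07 (SE 0.89, adjusted p = 0.429). Its wild type mean was 5.51 ± 0.47 at E12 and 8.58 ± 2.13 at E8.5 (SD, n = 2 each), a difference of -3.07 (SE 0.89, adjusted p = 0.0456) whose size leaned on E8.5 wild type replicate 1. It was -1.57 without that array (adjusted p = 0.0264) and -4.57 without replicate 2 (adjusted p = 0.000728). It no longer passed without any 1 of the other 6 arrays (adjusted p = 0.0742 to 0.160), under quantile normalization (adjusted p = 0.0553) or with 50 added to each intensity (adjusted p = 0.119). The second Cdh5 probe set differed by -1.46 in wild type (adjusted p = 0.0388) and by 0.097 in knockout embryos. Its knockout values all lay below the 25th percentiles of their arrays.

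Tek averaged 6.22 ± 0.24 at E12 and 7.96 ± 0.64 at E8.5 in knockout embryos (SD, n = 2 each), a difference of -1.74 (SE 0.56, t -3.09, adjusted p = 0.0657). Wild type Tek differed by -0.71 (SE 0.56), and by 0.15 without E8.5 wild type replicate 2. Tie1 differed by 0.062 (SE 0.46) in knockout, or -0.15 under quantile normalization, and by 0.94 (SE 0.46, adjusted p = 0.178) in wild type embryos. The lymphatic receptor Flt4 differed by -0.91 (SE 0.40, adjusted p = 0.143) in knockout and -0.63 (SE 0.40) in wild type embryos, and its second probe set by 0.28 and 0.10. Pecam1 differed by 0.63 (SE 0.25, adjusted p = 0.117) in knockout and 0.037 (SE 0.25) in wild type embryos, the second of which turned to -0.15 under quantile normalization. None of these 4 genes passed in either genotype.

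**Figure D5:**
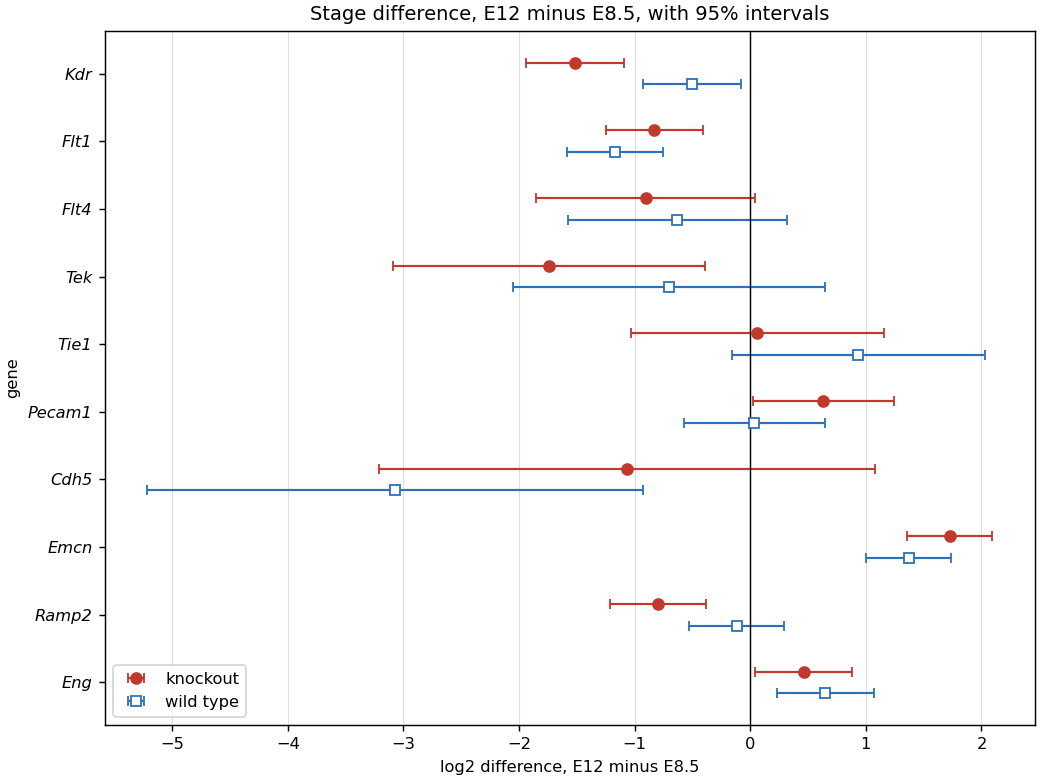
Log2 difference of E12 minus E8.5 (horizontal axis) for the 10 genes in knockout (filled circles) and wild type embryos (open squares), with 95% intervals from the fit over all probe sets. Emcn lay well above 0 and Flt1 well below it in both genotypes, and the differences of Kdr and Ramp2 were more negative in knockout than in wild type embryos.

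The profiles of the 10 genes over the arrays were compared next. After each gene was centred on its own mean over the 8 arrays, the genes lay between 0.26 (Ramp2) and 1.46 (Cdh5) from their joint mean profile, as a root mean square difference. The 5 genes most like that mean profile, among 11662 genes with a mean above the median of all probe sets, were Cpped1, Nek3, Irf5, Plxnb2 and Usp54, at 0.065 to 0.080. The mean profile itself ran between -0.29 and 0.23. Set against single genes, Tie1 had Nfil3, Arhgef15, Grasp, Pde4b and Stab1 nearest, at 0.10 to 0.17, of which Arhgef15 and Stab1 are known from endothelium. Kdr had Pls1 and Dennd6a nearest, at 0.068 and 0.096, and Cdh5 had no gene nearer than Exoc3l4, at 0.34. These likenesses are over 8 arrays in 4 groups that differ by stage, and the single-gene ones were computed after the values were seen.

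Among 14 ligands of these receptors, none passed the test in either knockout comparison, against 0% of all genes at E8.5 and 0.0275% at E12. At E8.5 the ligands had a median difference of -0.067 with 5 higher and 9 lower in knockout. Vegfa, the ligand of Kdr and Flt1, had 6.54 and 6.64 in the E8.5 knockout arrays, against 6.93 and 6.39 in the wild type arrays, which overlapped. Vegfc, the ligand of Flt4, had 6.57 and 6.91 in the knockout arrays, against 3.34 and 8.39 in the wild type arrays, with wild type arrays on either side. Across the stages Tgfb3 and the Tek ligand Angpt1 rose in both genotypes, Tgfb3 by 2.71 in knockout and 2.09 in wild type, and Angpt1 by 1.85 (adjusted p = 0.0197) in knockout and 1.35 (adjusted p = 0.0499) in wild type. So the ligand gene Angpt1 was higher at E12 while the means of its receptor Tek were lower. Neither Tek change passed, and the wild type one turned to 0.15 without E8.5 wild type replicate 2.

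Of 15 co-receptors and signalling partners, 0 passed in the knockout comparisons, against 0% of all genes at E8.5 and 0.0275% at E12. Nrp2 (1.63), a co-receptor in Vegfc signalling, was higher at E12 in wild type embryos. So was Smad5 (1.22), which carries signals of the Eng pathway into the nucleus. Of 12 junction partners, Vcl was 0.65 lower in the E8.5 knockout (t below -3, not called), and no other had an absolute t above 3 in a knockout comparison. Vcl, Tjp1 and Ctnna1, which tie junctions to actin, were lower at E12 in both genotypes, with Tjp1 at -2.15 in knockout and -2.35 in wild type and Ctnna1 at -2.08 in knockout and -1.97 in wild type. Jam2, a junction adhesion molecule, was higher at E12, by 1.06 in knockout and 0.65 in wild type embryos. These partners are also used by epithelia, and the yolk sac endoderm genes, an epithelium, were lower at E12 in the same arrays. Their part in the junction values was not tested.

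Of 15 other endothelial genes, Cd34, a surface sialomucin of endothelium and blood progenitors, was the 1 with an absolute t above 3 at E8.5 (background 2.31%). It had 6.31 and 5.32 in the knockout arrays, against 4.09 and 4.82 in the wild type arrays, a difference of 1.37 (SE 0.38) that was not called. The direction of the list turned on the wild type array used. Against both wild type arrays 11 of 15 were higher in knockout with a median of 0.13, without wild type replicate 2 it was 14 of 15 with a median of 0.86, and without wild type replicate 1 it was 5 of 15 with a median of -0.54. The 10 genes studied did the same, with 7, 7 and 3 of 10 higher and medians of 0.20, 0.40 and -0.11. Over all genes the medians were -0.014, -0.010 and -0.0098. Leaving out an array for the lists was chosen after the values were seen.

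At E12 none of the 15 passed, against 0.0275% of all genes, and their median was -0.12 against -0.0063 over all genes. With stage, Cav1, a protein of surface pits in capillaries, rose by 3.51 in knockout and 3.23 in wild type, and Podxl, a sialomucin shared with kidney and yolk sac epithelia, fell by 4.41 in knockout and 3.72 in wild type. In all, 3 were higher and 1 lower at E12 in knockout and 4 higher and 1 lower in wild type embryos among the 15, against 13.8% higher and 18.3% lower in knockout and 14.8% higher and 19.6% lower in wild type over all genes.

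Of 18 endothelial transcription factors, 2 had an absolute t above 3 at E8.5 (background 2.31%) and none was called (background 0%). Nr2f2 (COUP-TFII), which sets venous identity, had 7.22 and 7.39 in the knockout arrays, against 8.52 and 8.39 in the wild type arrays. Both replicates of each genotype lay close together, and the difference was -1.16 (SE 0.17, adjusted p = 0.843). Prox1, the switch to lymphatic endothelium that acts with Nr2f2, went the other way. It had 4.98 and 4.87 in the knockout arrays, against 4.25 and 3.61 in the wild type arrays, a difference of 1.00 (SE 0.24). These Prox1 values all lay below the medians of their arrays. The value of 3.61 was also below the 25th percentiles of the wild type arrays (4.10 and 4.13), and no detection calls bear on it. At E12, Lmo2, a partner of Tal1 in blood and endothelium, had 6.70 and 6.77 in knockout and 7.99 and 8.19 in wild type embryos, a difference of -1.36 (SE 0.41, adjusted p = 1.000). With stage, Sox17, an arterial and endodermal factor, fell by 3.95 in knockout and 3.61 in wild type embryos, and Ets1 rose by 2.01 in wild type embryos.

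The medians of several lists of other tissues at E8.5, though not of all, also depended on which wild type arrays were used. The embryo proper list (8 genes, such as Sox2 and Tnnt2) had a median difference of 0.36, which was -0.26 without wild type replicate 1. The same list medians were 0.14 and 0.0073 for smooth muscle and pericyte genes, 0.86 and -0.0073 for maternal decidua genes, 0.28 and 0.077 for yolk sac endoderm genes and -1.51 and 0.10 for trophoblast genes. Red cell genes had -0.81 and -1.65, and without wild type replicate 2 instead they had -0.079. For megakaryocyte genes the medians were -0.041 and -0.047, and for macrophage genes 0.028 and 0.17. A trophoblast gene that differed in both replicates was the placental gene Peg10, which had 4.21 and 4.36 in the knockout arrays, against 6.29 and 6.09 in the wild type arrays, a difference of -1.90 that was not called.

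The blood lists give the size of difference that these arrays did resolve. At E12 the platelet chemokine Pf4 had 4.86 and 4.82 in knockout and 10.31 and 10.79 in wild type embryos, a difference of -5.71 (adjusted p = 0.00176 in limma). In that comparison 3 of 8 megakaryocyte genes and 1 of 10 macrophage genes passed, against 0.0275% of all genes. Beside that, 95% intervals at E12 reached no farther than 0.73 below 0 for Kdr, 0.60 for Eng and 0.42 for Ramp2. For Tek, Tie1 and Cdh5 they reached 1.57, 1.63 and 2.60 below 0. The fit shares 1 spread over all groups, so these E12 widths also carry the spread of the E8.5 replicates. Cdh5 had an SD of 2.13 in E8.5 wild type, against 0.089 in E12 knockout and 0.47 in E12 wild type. Over all probe sets the mean residual variance was 2.92 times as high at E8.5 as at E12.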

How the data were processed

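Total RNA of mouse embryo propers, in 4 groups of 2 arrays, was measured on 1-colour Affymetrix arrays. The authors summarized the probes of each probe set by Robust Multi-array Analysis, and what they deposited is a linear intensity per probe set. The sources used here do not say whether all arrays were normalized in a single run, and give no detection calls. The number of arrays limits the precision. Every array column was assigned to a sample (0 left over).

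Intensities were converted to log2 with no pseudocount. After 64 control probe sets were left out, 45037 were tested without a filter on dim probe sets. The platform annotation, with symbols updated through a RefSeq gene table (GRCm38.p6, for names), gave 1 gene symbol to 34945 of them, several to 932 and none to 9160. A further 2 probe sets named Ramp2 with another gene and were not used.

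A linear model with 4 group means and no block was fitted to all 8 arrays in limma 3.58.1 (R 4.3.3), with moderated variances and Benjamini-Hochberg adjustment over all probe sets. The step was tested on simulated data. The 10 genes and the 13 lists (147 genes) beside them were chosen with earlier results of these data known. From the lists, genes with an adjusted p below 0.05 or an absolute t above 3 could be named, at most 3 per list and comparison. For the blood, trophoblast, decidua and yolk sac lists the 3 with the highest mean level could be named too. The 5 genes nearest the joint mean profile were also named. Alternatives were quantile normalization, 50 added to each intensity, a filter on dim probe sets, each stage fitted alone, the replicate number as a block, the mean of all probe sets of a gene, array quality weights, and each array left out.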

Additional observations from a re-analysis of the deposited data

Results flagged for a closer look

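For Kdr the direction of the knockout difference changed between the stages. It was 0.71 at E8.5, where both knockout arrays lay above both wild type arrays, and -0.30 at E12, where both lay below. The E12 difference minus the E8.5 difference was -1.01 in limma, and it did not pass after adjustment (adjusted p = 1.000). It kept its sign as each array was left out, between -1.18 and -0.85.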

How the results depend on the processing

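None of the 10 genes passed in a knockout comparison or in the test between stages under any alternative that kept all arrays, and these counts stayed at 0. Medians and counts of the stage comparisons moved with the scaling. Under quantile normalization the median stage difference of the 10 genes was -0.44 in knockout and 0.088 in wild type embryos, against -0.81 and -0.31 as reported. The wild type stage differences of Kdr (0.33), Ramp2 (0.53) and Pecam1 (-0.15) and the knockout one of Tie1 (-0.15) then reversed. With 50 added to each intensity the knockout median was -0.53. A filter on dim probe sets removed Tie1, Pecam1 and Emcn. Of the 7 genes left, the wild type median was -0.63 and 2 passed there (42% of all probe sets kept), Emcn being removed and Eng no longer passing (adjusted p = 0.0666). With array quality weights 8 genes passed in knockout, while the share of all probe sets that passed was 44.2%, against 25.6% as reported. Over the mean of all probe sets the knockout median was -0.40, Eng reversed to -0.19 (knockout against wild type at E8.5), -0.022 (stage, knockout) and -0.11 (stage, wild type), and the differences between stages reversed to -0.087 for Flt1 and 0.085 for Eng. The cause was not tested.

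With each array left out, a lone array being assumed to vary like the other groups, the genes that passed numbered 0 to 1 at E8.5, 2 to 7 for stage in knockout, 2 to 5 for stage in wild type and 0 to 1 for the test between stages, where the single gene was Cdh5 without E8.5 wild type replicate 2. The shares of all probe sets that passed ran from 0% to 4.31%, 5.16% to 35.7%, 13.6% to 31.5% and 0% to 1.59% in these 4 comparisons. The E8.5 median ranged from -0.11 to 0.40 and that of the test between stages from -0.51 to 0.064. At E8.5 signs turned for Flt4 (-0.24 to 0.49), Tek (-0.046 to 1.67), Tie1 (-0.36 to 1.05) and Eng (-0.17 to 0.18), and at E12 for Flt4 (-0.65 to 0.35) and Ramp2 (-0.11 to 0.086). Stage signs turned for Tie1 in knockout (-0.15 to 0.28) and, in wild type, for Tek (-1.57 to 0.15), Pecam1 (-0.30 to 0.37) and Ramp2 (-0.26 to 0.020). The test between stages turned for Flt4 (-0.78 to 0.23).

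Whether replicate numbers paired the samples was not settled. The correlation of replicate differences between groups ran from -0.121 to 0.372. The highest values were those between knockout and wild type within a stage, 0.372 at E8.5 and 0.173 at E12. Over the genes studied alone they were -0.796 at E8.5 and 0.686 at E12. These values do not decide the question, since the E8.5 one changed sign with the genes used. With the replicate number as a block, 3 genes passed for stage in wild type instead of 4, Cdh5 being lost (adjusted p = 0.0522), and the other counts were those reported. The dimmest genes, Emcn at E8.5, Pecam1 and Tie1, lay near or below the array medians, and no detection calls bear on them.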
